A study of Mus musculus with 4 samples.

Results

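Mural cells are the contractile and supporting cells wrapped around brain vessels. They were selected here as nuclei from the lesion and the residual parenchyma of mice killed 21 days after photothrombotic (PT) injury, in which light activates the dye Rose Bengal over the somatosensory cortex and blocks its vessels. A nucleus was taken as mural when 3 conditions held. It had at least 3 UMIs (unique molecular identifiers, each a counted RNA molecule) summed over Rgs5, Abcc9, Notch3, Kcnj8 and Myh11, with at least 2 of these genes seen. This sum exceeded that of the endothelial genes Flt1, Mecom, Ptprb, Adgrl4, Cldn5 and Egfl7. At most 1 UMI came from Csf1r, Bnc2, Slc17a7, Gad2, Aqp4 and Mog together, which mark other cells. Among the 22905 barcodes with at least 757 gene UMIs, of 23489 deposited, 66 nuclei met the rule.

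The library labelled control came from mice labelled wild type. The library labelled Cxcl12-cKO came from Col1a2(creER); Cxcl12(flox) mice, in which Cxcl12 was to be deleted from fibroblasts by a tamoxifen-inducible Cre under Col1a2 control. That Cre was not designed for mural cells. Each genotype was 1 library from 2 pooled mice, 1 male and 1 female, and the sources used here do not give their exact ages. Nuclei of lesion and parenchyma were tagged separately, mixed at 75% and 25% by the authors, and sorted on scatter and DNA stain with no cell marker, so shares of nuclei in the 2 regions are not shares of tissue. With 1 library per genotype no test between groups was possible. Intervals in square brackets are exact 95% intervals that cover counting error only, nuclei are not replicates of a condition, and fewer cells of a type cannot be told apart from nuclei less readily recovered or detected.

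Pericytes sit in the basement membrane of capillaries, and smooth muscle cells ring arteries and arterioles. Both depend on PDGF-B from the endothelium acting on the receptor PDGFRβ, and on Notch signalling through NOTCH3. Smooth muscle carries the contractile apparatus of smooth muscle actin and myosin. Brain pericytes carry transporters, ATP-sensitive potassium channels (the Abcc9 and Kcnj8 products) and secreted matrix proteins such as vitronectin. Mural cells are known to detach, proliferate or change their gene expression around brain injuries.

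Promoters of 2 genes are shown for the contractile genes, because serum response factor and its partner myocardin act on smooth muscle genes through a sequence called the CArG box. The box was searched as CC, then 6 letters of which at most 1 was not A or T, then GG, a definition that reads the same on both strands, in the 250 bases before each RefSeq start. Of 32851 windows of the GRCm38.p6 build, 2823 (8.59%) held a match and 220 (0.670%) held 2 or more. Of the 12 genes of a 16-gene smooth muscle list with a window, Acta2 (smooth muscle actin) and Myl9 (a myosin regulatory light chain) held matches, 2 each. The Acta2 window is chr19:34255374-34255623 on the minus strand, the Myl9 window is chr2:156775214-156775463 on the plus strand, and capitals mark the matches.
Acta2: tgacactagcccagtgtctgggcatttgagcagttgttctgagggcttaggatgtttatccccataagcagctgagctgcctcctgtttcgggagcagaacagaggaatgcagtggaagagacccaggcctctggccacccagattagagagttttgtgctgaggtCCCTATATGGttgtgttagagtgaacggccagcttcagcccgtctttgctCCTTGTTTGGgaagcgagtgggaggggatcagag
Myl9: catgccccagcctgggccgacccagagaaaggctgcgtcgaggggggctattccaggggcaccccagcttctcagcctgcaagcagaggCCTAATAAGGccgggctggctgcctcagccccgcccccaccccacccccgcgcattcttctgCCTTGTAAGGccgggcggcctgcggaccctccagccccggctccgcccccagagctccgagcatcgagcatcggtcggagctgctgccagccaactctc
The Acta2 matches begin 84 and 34 bases before the start, and the Myl9 matches 161 and 99 bases before it. A match is a description of the letters, and the UMIs of both genes are given with the contractile genes.

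The 66 nuclei were few and shallow. Their UMIs ran from 758 to 4180 per nucleus, with a median of 1921.5, and their genes from 550 to 2094. Summed UMIs were 71074 in the lesion of the library labelled control, 21276 in the lesion of the library labelled Cxcl12-cKO, and 16950 and 26640 in their parenchyma. Mitochondrial genes held 0.633%, 1.75%, 0.401% and 0.623% of these sums. The median of all kept barcodes was 2941 and 2923 UMIs in the lesion and 17068 and 17925 in the parenchyma. A check of the targeted gene went against the labels: in lesional fibroblast nuclei Cxcl12 stood at 101 CPM (counts per 1000000 UMIs summed over the nuclei) in the library labelled control and at 212 CPM in the library labelled Cxcl12-cKO. Which part of Cxcl12 was flanked by loxP sites was not found in the labels or methods, so a 3′ tag may lie outside it and check nothing. The mural nuclei themselves held 3 and 1 Cxcl12 UMIs in the lesion and 0 and 3 in the parenchyma, and no UMI of its receptor gene Cxcr4.

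The genes of the rule were unevenly seen. Notch3 was seen in 62 of the 66 nuclei, Rgs5 (a regulator of G-protein signalling) in 41, Abcc9 (the regulatory subunit of a potassium channel) in 36, Myh11 (smooth muscle myosin) in 30 and Kcnj8 (the pore of that channel) in 9. Of the 5 genes, 2 were seen in 30 nuclei, 3 in 26 and 4 in 10. In fibroblast nuclei, at a median of 3234.5 UMIs, 7.77% had a Notch3 UMI and 0.678% an Rgs5 UMI. In endothelial nuclei, at a median of 2211.5 UMIs, these shares were 2.27% and 13.2%. At the edge of the rule, 4 nuclei had 3 mural UMIs and 5 had 4, while 6 barcodes just outside had 2 UMIs of 2 genes and 7 had 3 or more UMIs of 1 gene. A further 33 barcodes failed by UMIs of other cells alone, 2 of them with 2 such UMIs.

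Genes outside the rule were checked against the name of the class. Pdgfrb, the PDGF receptor of mural cells, was seen in 49 of 66 nuclei, and its level was 1148 CPM against 28.0 CPM in endothelial and 161 CPM in fibroblast nuclei. Ebf1, a transcription factor gene of mural cells that other stromal cells also use, was seen in 65. Among genes with at least 100 mural UMIs, those with the highest ratios to all other kept barcodes that the rule did not use were Slc38a11 (an amino acid transporter) at a log2 ratio of 10.36, Ano1 (a chloride channel) at 8.52, Vtn (vitronectin) at 8.46, Atp13a5 (a transport ATPase of brain pericytes) at 7.38 and Carmn (a smooth muscle long noncoding RNA) at 6.53. These ratios describe nuclei picked by genes that go with them. Not all nuclei shared these genes: Vtn was seen in 26 and Atp13a5 in 21 of the 66. Cspg4, another mural gene, was seen in 22. In the lesion, Vtn was seen in 6 of 37 control and 4 of 11 Cxcl12-cKO nuclei, and Atp13a5 in 5 and 1. In the parenchyma, Vtn was seen in 8 of 8 and 8 of 10 nuclei, and Atp13a5 in 8 and 7.

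Other cells' markers were low but not absent, which the rule in part fixed. It held down 6 of the 10 endothelial markers, the fibroblast marker Bnc2, and Csf1r, Slc17a7, Gad2, Aqp4 and Mog. The 10 endothelial markers summed to 419 CPM in mural nuclei against 12504 in endothelial nuclei, with Egfl7 at 0. The 8 fibroblast markers summed to 846 CPM against 7519 in fibroblast nuclei, with 1210 CPM in the control lesion, 564 CPM in the Cxcl12-cKO lesion, 590 CPM in the control parenchyma and 263 CPM in the Cxcl12-cKO parenchyma. All 4 T cell markers, Olig2 and Sst, which the rule did not use, were at 0. No mural barcode sequence was also present in the other library, although 47 sequences were shared between the libraries.

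Mural nuclei were a smaller share of the lesion in the library labelled Cxcl12-cKO. There were 37 among 8321 kept lesional barcodes of the library labelled control, or 0.445% [0.313 to 0.612], and 11 among 8169 in the library labelled Cxcl12-cKO, or 0.135% [0.0672 to 0.241]. The shares differed by a log2 ratio of −1.68 [−2.84 to −0.72]. In the parenchyma the counts were 8 of 3228, or 0.248% [0.107 to 0.488], and 10 of 3187, or 0.314% [0.151 to 0.576], a log2 ratio of 0.32 [−1.15 to 1.88]. The lesional intervals do not overlap and the parenchymal ones do, but neither includes the variation between mice.

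**Figure D1:**
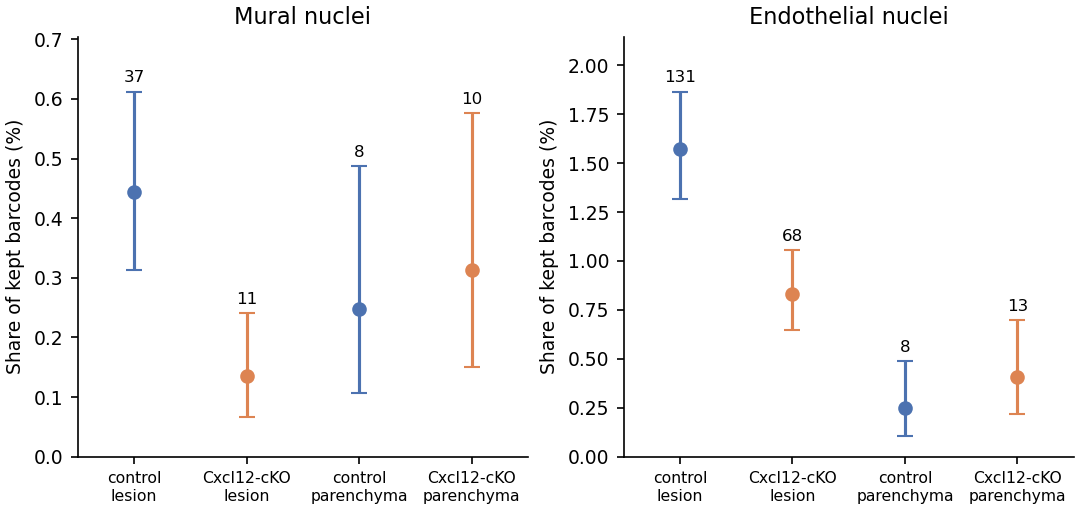
Share of kept barcodes (%, y axis) chosen as mural (left) and endothelial (right) in each library and region (x axis). Points are shares, bars exact 95% binomial intervals and numbers the nuclei counted; the lesion of the library labelled control stands highest in both panels, at 0.445% for mural nuclei.

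The lesional ratio was also taken within the nuclei of each sex. Assigning nuclei by Xist and Y-linked UMIs left 15 female mural nuclei in the lesion of the library labelled control and 6 in the other, a log2 ratio of −1.23 [−2.96 to 0.15]. Male nuclei were 12 and 1, a log2 ratio of −2.93 [−8.88 to −0.70]. These intervals overlap, and the difference between the ratios was not tested. Endothelial nuclei, the other cells of the vessel wall, also made up a smaller share of the lesion: 131, or 1.57%, against 68, or 0.832%, a log2 ratio of −0.91 [−1.36 to −0.49]. Mural nuclei per endothelial nucleus therefore differed by −0.76 on the log2 scale, with an interval that includes 0 [−1.92 to 0.20]. The share taken by fibroblast nuclei, which sets how much room is left for other cells, was 53.3% and 47.5%.

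The nuclei were then split by their own UMIs of 3 genes of the rule. A nucleus with more Myh11 than Abcc9 plus Kcnj8 UMIs was put on the Myh11 side and the reverse on the Abcc9/Kcnj8 side. This is a cut on a range and not a cell type: 17 nuclei lay within 1 UMI of it and 5 held UMIs of both. The Myh11 side held 27 nuclei, the Abcc9/Kcnj8 side 34, and 5 fell on neither. Myh11-side nuclei were 23 of 48 in the lesion (47.9%) [33.3 to 62.8] and 4 of 18 in the parenchyma (22.2%) [6.41 to 47.6]. In the lesion of the library labelled control they numbered 19 of 37, and in that labelled Cxcl12-cKO 4 of 11. As a share of kept lesional barcodes the Myh11 side differed between the libraries by −2.09 [−4.24 to −0.63] on the log2 scale and the Abcc9/Kcnj8 side, with 13 and 7 nuclei, by −0.82 [−2.43 to 0.56]. Whether these 2 ratios differ was not tested.

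**Figure D2:**
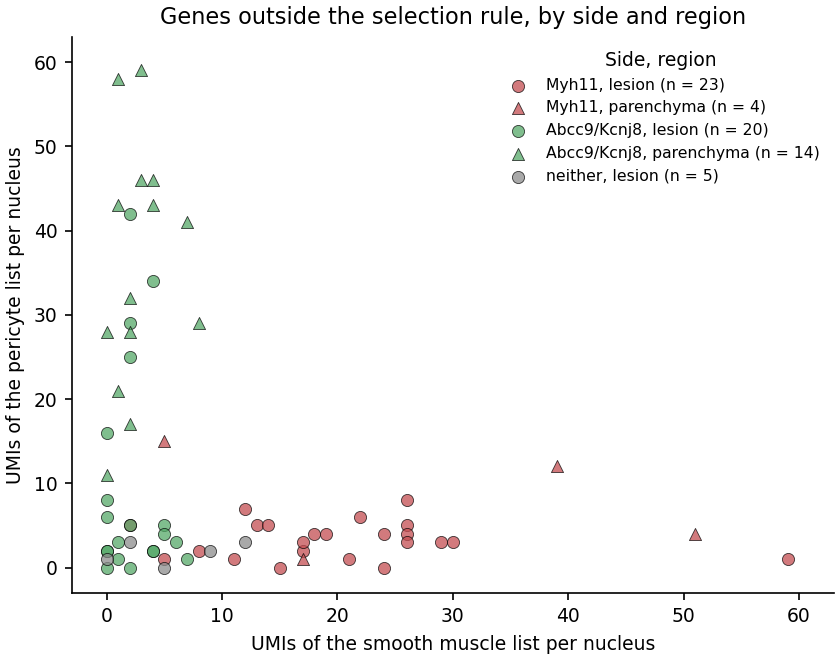
UMIs per nucleus of the 16-gene smooth muscle list (x axis) against the 13-gene pericyte list (y axis), neither holding a gene of the rule. Each point is 1 of 66 nuclei, coloured by side and shaped by region; Myh11-side nuclei spread along the x axis, all 14 parenchymal Abcc9/Kcnj8-side nuclei have 11 or more pericyte UMIs, and most lesional ones lie near the corner.

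Myh11-side nuclei carried the contractile programme. Of 737 genes with at least 30 UMIs over both sides, 141 (19.1%) were at least 2-fold higher on the Myh11 side and 113 (15.3%) at least 2-fold lower. Against that background, all 8 measured members of the smooth muscle list were at least 2-fold higher, with a median log2 ratio of 4.44 (4.03 with genes at 0 set to their bound), where the median of all genes was 0.05. Acta2 and Myocd passed the minimum through the Myh11 side alone, so this count and median were in part fixed. All 16 genes of the list, summed, stood at 3.04 [2.72 to 3.39]. These counts describe sides that were cut on related genes. UMIs are given first for the 27 Myh11-side and then for the 34 Abcc9/Kcnj8-side nuclei, whose sums were 56581 and 68996 UMIs.

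Acta2 had 86 UMIs in 23 nuclei on the Myh11 side and 0 on the other, which makes it at least 35.0-fold higher when 3 counts over the group are allowed to a 0. Myocd, the gene of myocardin, had 40 and 0 UMIs, at least 16.3-fold. The other contractile and cytoskeletal genes were graded. Synpo2 (an actin-bundling protein) had 68 and 2 UMIs and a log2 ratio of 5.06 [3.47 to 8.45], Lmod1 (leiomodin) 35 and 1, at 4.85 [2.84 to 10.76], and Tpm1 (tropomyosin) 111 and 18, at 2.88 [2.18 to 3.72]. Mylk, the kinase of myosin light chain, was the least separated at 79 and 38 UMIs, a log2 ratio of 1.33 [0.77 to 1.94]. Of the 2 genes whose promoters are shown above, Acta2 thus had UMIs on the Myh11 side and none on the other. A nucleus on neither side held 1 further Acta2 UMI. Myl9 had 10 UMIs on the Myh11 side and 9 on the other, too few for a ratio.

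Genes of excitation and calcium handling lay on both sides. Of the 11 measured potassium and calcium channel genes, 4 were at least 2-fold higher on the Myh11 side and 2 at least 2-fold lower, with a median of 0.09. Ryr2, a calcium release channel, had 68 and 5 UMIs, a log2 ratio of 3.92 [2.76 to 5.72]. Kcnma1, the large-conductance potassium channel, had 47 and 7, at 2.95 [1.88 to 4.42]. Itpr2, an inositol trisphosphate receptor, went the other way with 8 and 51, at −2.31 [−3.67 to −1.30]. Outside the list, Slc8a1, the sodium-calcium exchanger, had 88 and 17, at 2.62 [1.90 to 3.50]. The pathway of nitric oxide and cGMP, which relaxes smooth muscle, was seen on both sides. Of its 8 measured genes, 2 were at least 2-fold higher on the Myh11 side, Pde3a (a phosphodiesterase) at 1.78 [1.42 to 2.15] and Irag1 (a target of the cGMP kinase) at 1.64 [1.00 to 2.36], and Gucy1b1 (a subunit of the nitric oxide receptor) was lower at −2.00 [−3.49 to −0.89]. The secreted factors differed as well: Tgfb2 had 29 and 1 UMIs, Ltbp1, which stores latent TGFβ in the matrix, 50 and 0 (at least 20.3-fold), and Eln, the gene of elastin, 30 and 5.

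Pericyte genes were higher summed over the Abcc9/Kcnj8 side, most of their UMIs lying in its parenchymal nuclei. The 13-gene list had 502 UMIs in the 14 parenchymal and 190 in the 20 lesional nuclei. On the Myh11 side it had 77 in 23 lesional and 32 in 4 parenchymal nuclei. The part of this mix of regions in the side ratios was not tested. Of the 5 measured members, 4 were at least 2-fold higher on the Abcc9/Kcnj8 side, against the 15.3% of all genes. The list had a median log2 ratio of −4.19 in the Myh11 over Abcc9/Kcnj8 direction. All 13 genes, summed, differed by less, at −2.37 [−2.69 to −2.09]. Vtn had 3 UMIs on the Myh11 side and 169 on the other, at −5.31 [−7.82 to −3.96]. Atp13a5 had 11 and 262, at −4.23 [−5.31 to −3.42]. Slc38a11 went the other way at 0.56 [0.06 to 1.07]. Outside the list, Grm3 (a metabotropic glutamate receptor) had 1 and 172 UMIs, Ptn (the growth factor pleiotrophin) 5 and 112, and Slc6a20a (a transporter of proline) 0 and 69, at least 18.9-fold lower on the Myh11 side. Pdgfrb was higher on the Abcc9/Kcnj8 side at −1.81 [−2.49 to −1.22], as were the laminin genes Lama2 at −1.86 [−2.54 to −1.27] and Lamc1 at −1.78 [−2.82 to −0.93]. Notch3 and Ebf1 were at −0.06 and 0.02, so each was near equal on the 2 sides.

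Within the Abcc9/Kcnj8 side, lesion and parenchyma gave different nuclei. The 5 pericyte genes Atp13a5, Vtn, Grm3, Ptn and Slc6a20a were chosen after their values were seen, so the following is a description. All 14 parenchymal nuclei, 7 from each library, had at least 4 of the 5 genes and between 15 and 80 of their UMIs. Of the 20 lesional nuclei, 16 had at most 2 of the 5 genes and between 0 and 4 UMIs, 10 of them from the library labelled control and 6 from the library labelled Cxcl12-cKO. The other 4 lesional nuclei had all 5 genes and between 19 and 50 UMIs, so they overlapped the parenchymal nuclei. In UMIs of these 5 genes no nucleus lay between the 2 groups. The 13-gene pericyte list gave no such gap. Its UMIs ran from 0 to 25 in the 16 nuclei, 16 to 42 in the 4 and 11 to 59 in the parenchymal ones.

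**Figure D3:**
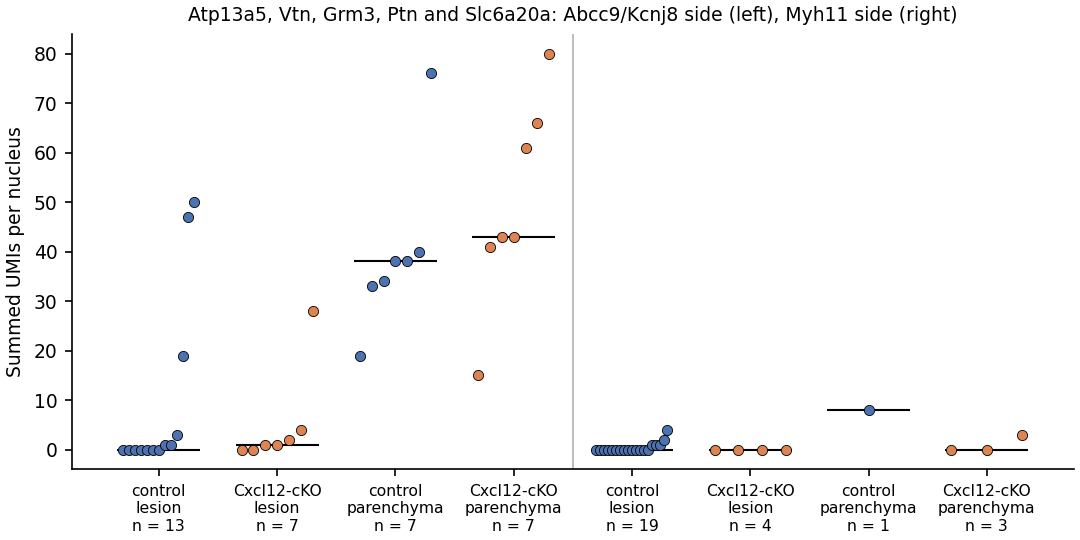
Summed UMIs per nucleus (y axis) of Atp13a5, Vtn, Grm3, Ptn and Slc6a20a, by side, region and library (x axis). Each point is 1 nucleus and each line a median; parenchymal Abcc9/Kcnj8-side nuclei hold 15 to 80 UMIs, while 16 of 20 lesional ones hold 4 or fewer.

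The depth and the mural UMIs of these nuclei stand beside that split. The 16 low nuclei had a median of 1449 UMIs, the 4 high ones 2164 and the parenchymal ones 2307. Their UMIs of the rule's own 5 genes had medians of 7.5, 7 and 10.5, with ranges of 3 to 24, 4 to 9 and 3 to 16, which overlap. Fibroblast markers stood at 1957, 368 and 341 CPM and a list of fibrotic matrix genes at 5837, 1596 and 1303 CPM. Per nucleus, the medians were 1, 0.5 and 1 UMIs of the fibroblast markers and 7, 3 and 3 UMIs of the matrix list. The fibroblast marker sum of the 16 nuclei lay largely in 2 of them, with 21 and 11 UMIs. The part of depth or of fibroblast RNA in the split was not tested. Because the 16 nuclei had at most 2 of the 5 pericyte genes picked here, they are named by the side they fell on and not as pericytes. Kcnj8, a gene of the rule, was seen in 2 of all 48 lesional and 7 of all 18 parenchymal mural nuclei.

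The region comparison over all genes summed the 48 lesional nuclei (92350 UMIs) and the 18 parenchymal nuclei (43590 UMIs). Of 815 genes with at least 30 UMIs, 188 (23.1%) were at least 2-fold higher in the lesion and 60 (7.36%) at least 2-fold lower. The median of all genes was shifted by 0.36 on the log2 scale, and centred on it the counts were 111 (13.6%) and 106 (13%). Without centring, 552 of the 815 genes were above 0 and 263 below, which is the background of the directions that follow. Pericyte list genes were lower in the lesion: all 5 measured were below 0 and 3 at least 2-fold lower, with a median of −2.31. All 13 of them, summed, stood at −2.03 [−2.25 to −1.82]. Fibrotic matrix genes were higher: all 7 measured were above 0 and 6 at least 2-fold higher, with a median of 2.03. These 7 passed the minimum mainly through the lesion, so their direction was in part fixed. All 27 genes of that list, summed, held 442 lesional and 57 parenchymal UMIs, a log2 ratio of 1.86 [1.47 to 2.30]. The 12 measured transcription factor genes were all above 0, 5 of them at least 2-fold, with a median of 0.83, and the 8 smooth muscle genes had a median of 0.86 with 3 at least 2-fold higher. Summed over all members, the transcription factor list stood at 0.89 [0.72 to 1.07] and the smooth muscle list at 0.76 [0.50 to 1.03].

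Genes lower in lesional mural nuclei included pericyte genes, and those picked as lowest by the naming rule also held Unc13c, Ccdc141 and Grm7. UMIs are given as control lesion, Cxcl12-cKO lesion, control parenchyma and Cxcl12-cKO parenchyma. Vtn had 13, 15, 55 and 90, and a log2 ratio of lesion over parenchyma of −3.44 [−4.09 to −2.86]. Ptn had 14, 2, 50 and 51, at −3.70 [−4.60 to −2.97], and Atp13a5 50, 14, 103 and 106, at −2.78 [−3.22 to −2.38]. For these 3 genes the parenchyma was higher in CPM in both libraries, which the naming rule asked for. Their levels in mural parenchyma, 3326, 2317 and 4795 CPM, stood above those of all other parenchymal barcodes, at 1.00, 150 and 2.42 CPM. Grm7, a metabotropic glutamate receptor of neurons, was lower in the lesion as well, at −2.54, but its 3349 CPM in mural parenchyma was close to the 2474 CPM of all other parenchymal barcodes.

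Genes higher in lesional mural nuclei included some with no UMI in the 18 parenchymal nuclei, a 0 that allows up to 68.8 CPM. Stac, which binds L-type calcium channels, had 69 and 19 UMIs in the 2 lesions and 0 and 0 in the parenchyma, at least 13.8-fold higher. Ebf2, a transcription factor gene, had 42 and 18 against 0 and 0, at least 9.44-fold. Zfp521, a zinc finger gene, had 23 and 8 against 0 and 0, at least 4.88-fold. Stac stood out from its surroundings, at 953 CPM in lesional mural nuclei and 3.61 CPM in all other lesional barcodes. Ebf2 (650 and 62.5 CPM) was also above its surroundings, whereas Zfp521 (336 and 324 CPM) was level with them.

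Collagens were also higher in lesional mural nuclei, at levels nearer to those of the surrounding lesion. Col3a1 had 51, 5, 1 and 3 UMIs, a log2 ratio of 2.57 [1.29 to 4.65], Col5a2 43, 7, 2 and 1, at 2.77 [1.35 to 5.30], and Col1a1 29, 3, 1 and 0, at 3.35 [1.34 to 9.26]. In lesional mural nuclei Col1a1 stood at 347 CPM against 407 CPM in all other lesional barcodes and 242 CPM in lesional endothelial nuclei. The whole fibrotic matrix list stood at 4786 CPM in lesional mural nuclei, 5165 CPM in all other lesional barcodes, 3043 CPM in endothelial and 9550 CPM in fibroblast nuclei of the lesion. Col3a1 (606 and 428 CPM) and Col5a2 (541 and 384 CPM) were higher in lesional mural nuclei than in all other lesional barcodes, while Col1a1 and the list were not, and the part of free RNA was not tested. Col18a1, a collagen of vascular basement membranes, was different: 37 UMIs against 1, a log2 ratio of 3.56 [1.56 to 9.47], at 401 CPM against 40.3 CPM in all other lesional barcodes. Prrx1, a mesenchymal transcription factor gene, had 78, 9, 1 and 3 UMIs, at 3.20 [1.95 to 5.27], and 942 CPM against 308 CPM.

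**Figure D4:**
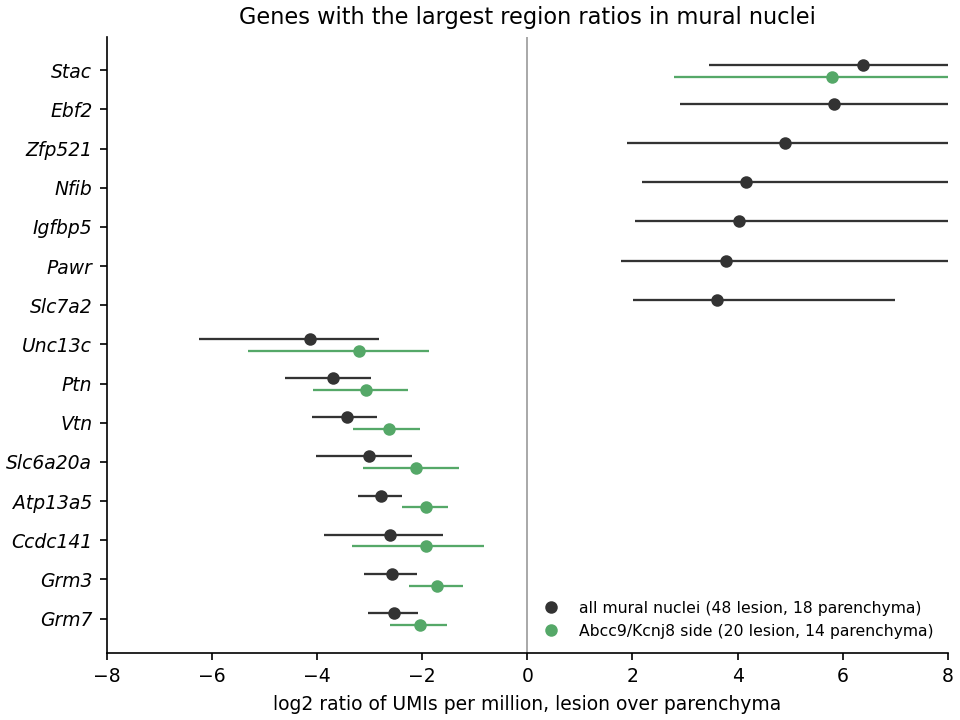
Log2 ratio of CPM, lesion over parenchyma (x axis), for genes among the 8 highest and 8 lowest by the naming rule (y axis). Black points are all mural nuclei and green points the Abcc9/Kcnj8 side where a gene had 30 UMIs there; bars are exact 95% counting intervals, drawn up to 8, and green points lie on the same side of 0 as black ones.

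The mix of sides differs between the regions, so the comparison was repeated within the Abcc9/Kcnj8 side (20 lesional and 14 parenchymal nuclei, 299 genes, of which 56, or 18.7%, were at least 2-fold higher and 35, or 11.7%, at least 2-fold lower). All 5 pericyte list genes were again below 0, where 128 of the 299 genes were. Of these 5, 4 were at least 2-fold lower, and their median was −1.56 against 0.14 for all genes. All 13 genes of the list, summed, stood at −1.59 [−1.84 to −1.35]. Vtn was at −2.63 [−3.31 to −2.04] and Atp13a5 at −1.93 [−2.38 to −1.52]. Stac had 31 UMIs in 9 of the 20 lesional nuclei and 0 in the parenchymal ones, at least 9.06-fold higher.

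Channel and signalling genes of vascular tone differed both ways within that side. Of 7 measured channel genes, 2 were at least 2-fold higher in the lesion and 1 at least 2-fold lower, with a median of 0.14, the same as that of all genes. Of 6 measured genes of nitric oxide and cGMP, 1 was at least 2-fold higher and 1 at least 2-fold lower. The lower ones were Itpr1, an inositol trisphosphate receptor, at −1.18 [−1.93 to −0.48], and Gucy1b1 at −1.16 [−2.32 to −0.13]. Cacna2d1, an auxiliary subunit of calcium channels, had 117 UMIs in 18 lesional and 13 in 6 parenchymal nuclei, a log2 ratio of 2.93 [2.15 to 3.93], with 31.5% of its UMIs in 1 nucleus and a ratio of 2.31 without it. Trpc6, a channel opened by diacylglycerol, had 31 and 3 UMIs, at 2.98 [1.50 to 5.53], and 2.29 without its top nucleus. Pde3a was at 2.42 [1.59 to 3.49], Col4a2 (a collagen IV chain of the basement membrane) at 2.10 [1.06 to 3.47] and Ednra, the receptor of the vasoconstrictor endothelin, at 1.66 [0.79 to 2.70]. Ednra was the only 1 of the 19 vasoactive receptor genes with the minimum of 30 UMIs. Malat1, a nuclear RNA, stood at 45950 CPM in the lesional and 129781 CPM in the parenchymal nuclei of this side, and its part in the ratios of other genes was not tested.

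The genotype comparison in the lesion rested on 11 nuclei of the library labelled Cxcl12-cKO and 37 of the library labelled control. Of 542 genes, 22 (4.06%) were at least 2-fold higher in the library labelled Cxcl12-cKO and 50 (9.23%) at least 2-fold lower, with a median of −0.06. Several lists had medians near 0. The pericyte genes had a median of −0.06 over 3 measured members, 1 of them at least 2-fold higher. All 13 summed gave 3760 CPM against 2758 CPM in the library labelled control, a log2 ratio of 0.45 [0.05 to 0.83]. That sum rested on few nuclei: 2 of the 11 held 29 and 25 of the 80 UMIs. In the library labelled control the 2 highest nuclei held 42 and 34 of 196. The median was −0.10 for the 7 smooth muscle genes, 0.09 for the 12 transcription factor genes, 0.12 for the 10 channel genes and −0.16 for the 7 genes of nitric oxide and cGMP. Some genes that separated the regions had genotype intervals that include 0, which Col3a1 and Prrx1 did not. Stac stood at −0.09 [−0.94 to 0.63], Ednra at 0.05 [−0.66 to 0.68] and Atp13a5 at −0.06 [−1.07 to 0.78]. All 14 Atp13a5 UMIs of the lesion in the library labelled Cxcl12-cKO lay in 1 nucleus.

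Other lists had medians further below 0. The fibrotic matrix list had 4 of 7 measured genes at least 2-fold lower in the library labelled Cxcl12-cKO, where 9.23% of all genes were, and 1 higher, with a median of −1.34. All 27 genes of that list, summed, differed by less, at 3666 CPM against 5121 CPM and a log2 ratio of −0.48 [−0.85 to −0.13]. The 7 measured ones passed the minimum mainly through the deeper control lesion. Medians were also below 0 for integrins and adhesion (−1.12 over 3 genes), fibroblast markers (−1.58 over 2), chemokines and inflammation (−0.73 over 2) and solute carriers (−0.58 over 4). Summed over all members, the 21 integrin and adhesion genes were not lower, at 0.04 [−0.30 to 0.37]. The 28 chemokine and inflammation genes stood at −0.30 [−0.80 to 0.15], which includes 0. The sums were −1.05 [−2.11 to −0.22] for the 8 fibroblast markers and −0.55 for the 17 solute carriers, whose interval also left out 0. Col8a1, a short-chain collagen of vessel walls, had 2 UMIs in 2 of the 11 nuclei and 45 in 15 of the 37, a log2 ratio of −2.45 [−5.84 to −0.82]. Col1a2 had 3 and 41 UMIs, at −1.83 [−4.37 to −0.38], Col3a1 5 and 51, at −1.49 [−3.29 to −0.29], and Col1a1 3 and 29, at −1.34 [−3.89 to 0.16]. Eln was higher with 14 and 21 UMIs, at 1.17 [0.07 to 2.20], but stood at −0.88 without its top nucleus. The median of the list was −0.96 without the deepest nucleus of each group and −0.21 with a gene minimum of 15 UMIs. The fibroblast markers, which include Col1a1 and Col1a2, moved the same way, at 564 CPM in the library labelled Cxcl12-cKO and 1210 CPM in that labelled control, and their part in the matrix ratios was not tested.

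Of the 7 measured smooth muscle genes, 3 were above 0, 0 were at least 2-fold higher and 2 at least 2-fold lower. The 2 lower ones were Tpm1 and Acta2. Tpm1 had 8 UMIs in 3 nuclei and 98 in 23, at −1.79 [−3.13 to −0.84]. Acta2 had 7 in 2 nuclei and 56 in 18, at −1.17 [−2.64 to −0.12]. All 16 genes of the list, summed, stood at −0.11 [−0.42 to 0.19], so the list as a whole was not clearly lower. Fewer of the nuclei labelled Cxcl12-cKO were on the Myh11 side, 4 of 11 against 19 of 37. Within that side the ratios were −1.53 for Tpm1 and −1.08 for Acta2. Prrx1 was at −1.31 [−2.56 to −0.38].

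Among single genes picked by rank, the highest were Frmd4b at 1.68 [0.76 to 2.58], from 22 UMIs in 4 nuclei and 23 in 9, Taco1 at 1.66 [0.61 to 2.70] and Slc16a12, a creatine transporter, at 1.50 [0.44 to 2.53]. Some rested on 1 nucleus: without its top nucleus Slc16a12 turned to −1.22 and Arhgap24 (a Rac-inhibiting protein) from 1.25 to −0.54. The lowest were Runx1t1 (a transcriptional corepressor) and Entpd1 (an enzyme that degrades extracellular ATP), each with 1 and 30 UMIs, at −2.61 [−8.52 to −0.58]. Both signs were the same in female and male nuclei because the naming rule asked for it, and the library labelled Cxcl12-cKO held 1 male nucleus.

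**Figure D5:**
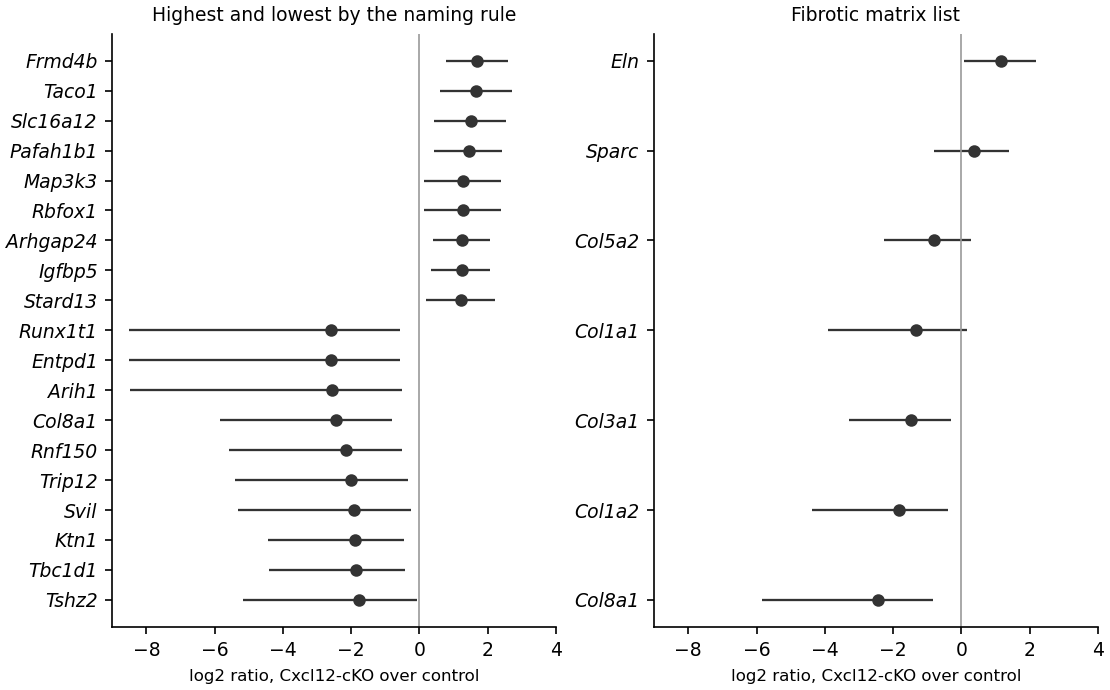
Log2 ratio of CPM in lesional mural nuclei, library labelled Cxcl12-cKO over control (x axis), for genes picked by rank (left) and the measured fibrotic matrix list (right). Points are ratios of sums over 11 and 37 nuclei and bars exact 95% counting intervals; Col8a1 at −2.45 is lowest on the right and Eln at 1.17 highest.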

How the data were processed

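The authors made single-nucleus libraries (10x Chromium 3′ v3.1, CellPlex tags for region) and, per the submitters' processing notes, used Cell Ranger 9.0.0 with GRCm39 (intron counting: not given in the sources used here). The authors deposited raw UMI counts per gene in 4 filtered matrices, 1 for each region of each library, with 33696 gene features. No doublet caller was run; the rule's limits on other cells' UMIs stood in for one. The UMI minimum of 757 is the 2.5th percentile of all barcodes. Endothelial and fibroblast nuclei were chosen likewise, by at least 3 UMIs of 2 or more of their own markers.

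Counts were summed over nuclei and ratios taken as log2 of CPM with 0.5 added to each sum. Genes needed 30 UMIs over both groups; past the fold means a log2 ratio of 1 or more either way. Shares have exact (Clopper-Pearson) intervals and ratios exact conditional binomial intervals, at 95%. No test was run, since each genotype was 1 library. Ratios and intervals were tested on simulated sums of independent counts, which do not cover UMIs concentrated in single nuclei. The genes named by rank were the 10 highest and 10 lowest for genotype (with an interval that leaves out 0 and the same sign in both sexes) and the 8 for region (same sign in each library), beside up to 5 members of each gene list; side-ranked genes outside the lists were chosen after their values were seen. Some named genes are not reported here. The members and lists were chosen with earlier results of these data known. Promoters came from RefSeq (GRCm38.p6), matched by symbol. Python 3.11.15, numpy 2.4.6, scipy 1.17.1 and pandas 2.3.3 were used.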

Additional observations from a re-analysis of the deposited data

Results flagged for a closer look

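The ratio of mural shares between the regions pointed opposite ways in the 2 libraries. In the library labelled control, mural nuclei were a larger share of the lesion than of the parenchyma, with 37 of 8321 and 8 of 3228 kept barcodes and a log2 ratio of 0.78 [−0.28 to 2.16]. In the library labelled Cxcl12-cKO they were a smaller share of the lesion, with 11 of 8169 and 10 of 3187 and a log2 ratio of −1.23 [−2.60 to 0.17]. Both intervals include 0, and the difference between the libraries was not tested, since each is 1 library.

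Acta2 did the same. Its log2 ratio of lesion over parenchyma in mural nuclei was 3.17 [1.20 to 9.07] in the library labelled control, from 56 UMIs in 18 of 37 nuclei against 1 UMI in 1 of 8. In the library labelled Cxcl12-cKO it was −1.32 [−2.86 to −0.12], from 7 UMIs in 2 of 11 nuclei against 23 in 3 of 10, where 1 parenchymal nucleus held 16 of the 23. This difference was not tested either. Of the 87 Acta2 UMIs, 86 lay in Myh11-side nuclei. These numbered 19 (lesion) and 1 (parenchyma) under the control label, and 4 and 3 under the Cxcl12-cKO label.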

How the results depend on the processing

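The smaller share of lesional mural nuclei in the library labelled Cxcl12-cKO held under every alternative tried, at log2 ratios from −1.23 (female nuclei) to −2.93 (male nuclei), with −1.68 as reported and −1.51 when each barcode was thinned to the UMI minimum. The cause of the changes that follow was not tested beyond what each setting itself removes. Thinning lowered the parenchymal mural shares to 0.0929% (control) and 0.0941% (Cxcl12-cKO) and the control parenchymal Myh11-side share to 0%. In female nuclei the Cxcl12-cKO parenchymal Myh11-side share was 0% of 4 nuclei. In male nuclei the Cxcl12-cKO lesional mural share was 0.0392%, from 1 nucleus. Male Myh11-side shares were 100% (Cxcl12-cKO lesion, 1 nucleus), 66.7% (Cxcl12-cKO parenchyma, 3 nuclei) and 0% (control parenchyma, 3 nuclei). The genotype values by sex that follow set 1 male nucleus against 12 and 6 female nuclei against 15, so they are not read as effects of sex. Counts of genes at least 2-fold higher and lower moved with depth and with the nuclei used. For region (188 and 60) they were 415 and 186 with a gene minimum of 15 UMIs, 64 and 26 with 60, 62 and 32 in female nuclei, 28 and 19 in male nuclei, and 111 and 106 when centred on the median. For genotype (22 and 50) they were 119 and 152, 4 and 14, 10 and 26, and 12 and 24 in the same order without centring, and 12 were higher with at most 1 endothelial UMI. Medians of genotype lists changed sign or size. The smooth muscle list was at −0.69 with at least 5 mural UMIs, 0.25 with at most 1 endothelial UMI, −1.81 in female nuclei and −0.70 without nuclei whose fibroblast UMIs reached their mural UMIs. The transcription factor list was at 0.33 with at least 5 mural UMIs, 0.71 in female and −2.00 in male nuclei. The nitric oxide and cGMP list was at 0.12 with at least 5 mural UMIs, 0.0224 with a gene minimum of 60, 0.34 in female and −0.73 in male nuclei. The channel list was at −0.13 with at most 1 endothelial UMI and as a mean over nuclei, 0.71 in female and −0.61 in male nuclei. The fibrotic matrix list was at −0.21 with a gene minimum of 15. Alternatives chosen after seeing the data were each library alone, the Abcc9/Kcnj8 side alone, leaving out the deepest nucleus of each region and library, and allowing 2 UMIs of other cells. On the Abcc9/Kcnj8 side alone the counts were 56 and 35 for region and 8 and 14 for genotype, with the channel list at 0.57 and the nitric oxide and cGMP list at 0.265. The region counts were 23 and 30 in the library labelled Cxcl12-cKO alone. Without the deepest nuclei the fibrotic matrix list was at −0.96 and the channel list at −0.0902. Of 796 values under 14 planned and 5 added alternatives, 695 stayed within the limits set for a change, and a further 172 could not be had. No paired analysis was possible because each genotype was 1 library, for which reason no replicate could be left out. At 66 nuclei, most genes outside the abundant ones fell below the minimum of 30 UMIs, so lower or unseen genes were not detectable at this depth.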

Other observations

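The interferon response list, of whose 35 genes none reached 30 UMIs in the region comparison, summed to 1191 CPM in lesional and 551 CPM in parenchymal mural nuclei. The log2 ratio of these sums was 1.09 [0.47 to 1.82]. In all other barcodes the list stood at 1239 CPM in the lesion and 86.1 CPM in the parenchyma. The lesional mural level was thus near that of its surroundings, and the part of free RNA was not tested. Within the Abcc9/Kcnj8 side the sums were 81 UMIs (2204 CPM) and 17 UMIs (527 CPM), a log2 ratio of 2.03 [1.30 to 2.91]. Endothelial nuclei held more of it in both regions, at 2831 and 3275 CPM, and the 10 endothelial markers stood at 816 CPM in lesional and 310 CPM in parenchymal nuclei of that side; their part in the ratio was not tested.

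Among genes of immune signalling, Il34, a ligand of the receptor encoded by Csf1r, had 79, 17, 16 and 7 UMIs in control lesion, Cxcl12-cKO lesion, control parenchyma and Cxcl12-cKO parenchyma, a log2 ratio of lesion over parenchyma of 0.95 [0.31 to 1.70]. Il1r1, the interleukin-1 receptor gene, had 30, 4, 0 and 3, at 2.22 [0.75 to 4.77]. Cell cycle genes summed to 28 UMIs in the lesional and 3 in the parenchymal mural nuclei, 303 and 68.8 CPM.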
